A study of Oryza sativa Japonica Group with 22 samples.

Results

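The 6 nuclear photosynthesis genes described here were followed in milkripe rice seeds of a parental line and 5 transgenic lines. They were picked by identifier as readouts of green maternal tissue of the grain, with earlier results of these data known. The genes are 3 RBCS genes (Os12g0274700, Os12g0291100 and Os12g0292400), CAB1R (Os09g0346500), CAB2R (Os01g0600900) and PsbO (Os01g0501800). All 6 are among the 38866 genes in the files, and all 6 passed the filter on low counts that left 26821 genes to test. Genes are given by identifier, and no sequence, length or position is given for them here.

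RBCS genes encode the small subunit of Rubisco, the enzyme that fixes CO2 in the chloroplast stroma. CAB genes encode the chlorophyll a/b-binding proteins of the light-harvesting antenna in the thylakoid membrane. PsbO is the extrinsic protein that stabilizes the manganese cluster of photosystem II, where water is oxidized. All of these proteins are made from nuclear genes in the cytosol and imported into plastids. In a developing cereal grain, the green tissues are chiefly the inner pericarp and the hull, both maternal, while the starchy endosperm is not green.

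Seeds were harvested 10 days after flowering, panicle by panicle, and each of the 22 libraries stands for an individual plant. CGS × SSA (n = 4 libraries) and SAT × SSA (n = 3) each hold 2 transgenes, after crosses of the lines CGS and SAT with SSA as the pollen donor. SSA (n = 3) carries HaSSA, the gene of a methionine-rich 2S albumin of sunflower seeds, with an ER retention signal and the endosperm promoter of the wheat glutenin gene Bx17. CGS (n = 5) carries AtD-CGS, a form of the Arabidopsis methionine synthesis enzyme cystathionine γ-synthase, and SAT (n = 3) carries EcSAT, the serine acetyltransferase of E. coli that supplies a precursor of cysteine. Both enzymes are targeted to chloroplasts and driven by the maize ubiquitin promoter, which is active in most tissues, unlike the promoter of HaSSA. In which tissues of these seeds each transgene was expressed was not measured. Taipei (n = 4) is the untransformed parent of the single transgenic lines. Each single line is 1 transformant, so transgene and insertion event cannot be told apart. In each double line, 2 segregants of the cross were combined, and the labels do not say which library belongs to which. The p-values below measure the spread between plants of 1 line, which in the double lines can include that between segregants.

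Whole seeds were ground, so fewer green cells and less RNA per green cell cannot be told apart. Whether hulls were ground with the milkripe seeds is not stated in the sources used here, so hull and pericarp cannot be told apart either. Counts on the strand of the genes summed to between 29642343 and 41585957 per library. Unmapped reads made up 2.87% to 8.07% in the 10 libraries with HaSSA, whose transgene is not in the rice genome, and 0.63% to 0.92% in the other 12. One library, SAT × SSA replicate 1, stood apart, with 20.3% of its reads outside genes, against 11.8% to 14.9% in the other 21. Genes of the endosperm, a list of 8, were abundant in all libraries, with a summed level of at least 25833 CPM (counts scaled to a common library size). This list and all other gene lists below were written from general knowledge of rice identifiers. They were not checked against an annotation.

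The 6 genes were well covered. The lowest count in any library was 962, for RBCS Os12g0274700, and the highest was 82200, for CAB1R. Reads on the opposite strand came to 0.08% to 0.20% of the reads on the strand of the gene. For CAB1R, CAB2R and PsbO, counting without strand gave 100.1% to 100.2% of the stranded counts. For the RBCS genes it gave 13.7% (Os12g0274700), 20.6% (Os12g0291100) and 30.4% (Os12g0292400). Counting without strand does not assign a read that overlaps genes on both strands. The RBCS genes form a family of similar sequence and reads that map to several places were not counted, so the level of each single RBCS gene is uncertain.

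**Figure D1:**
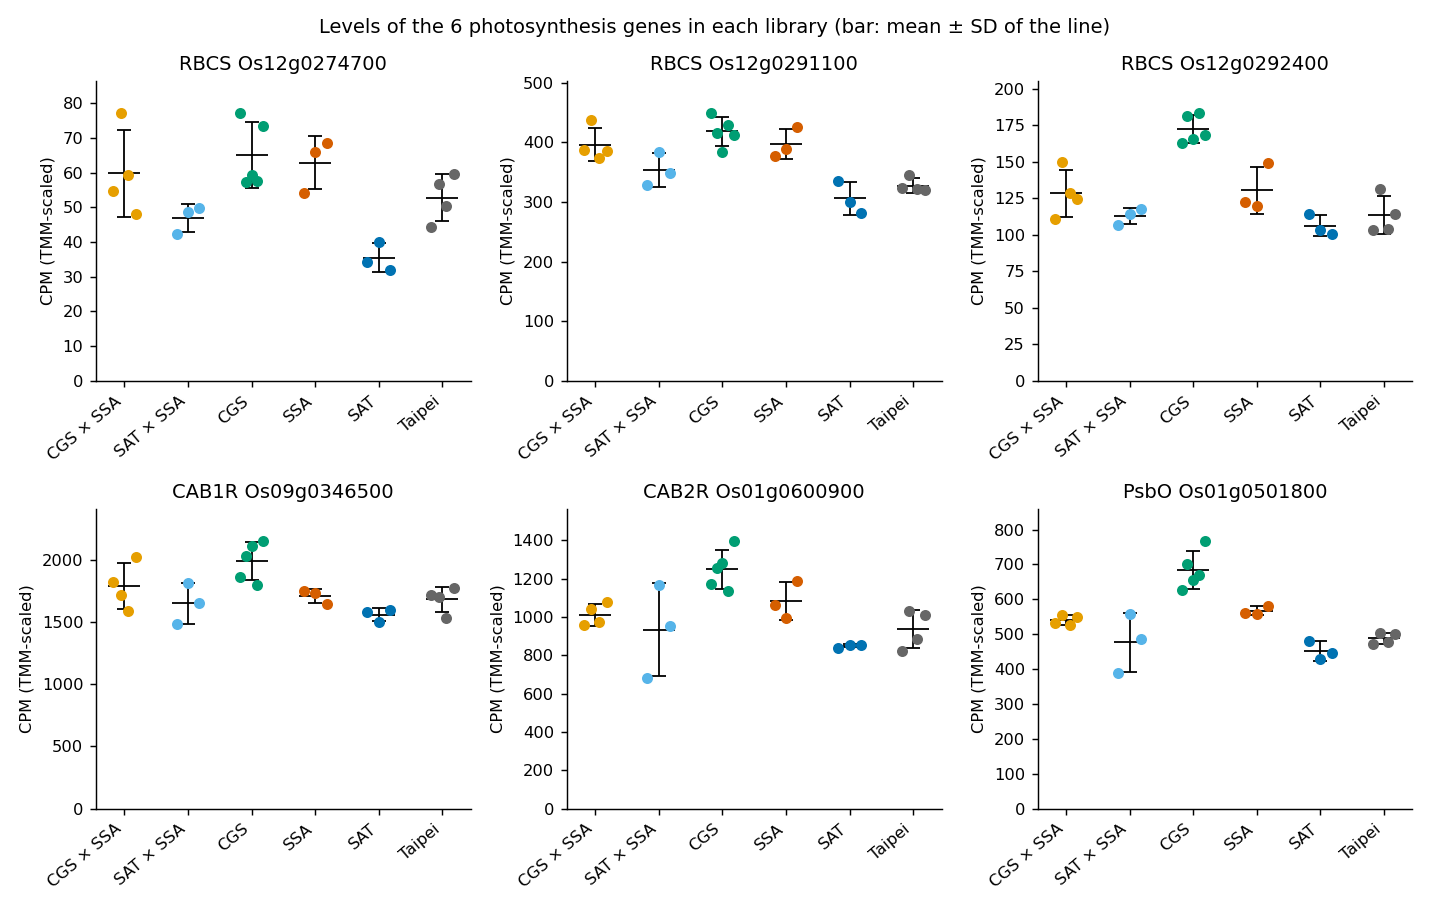
Level of each of the 6 genes in each library, in CPM scaled with TMM factors (y axis, from 0), by line (x axis); points are libraries and bars are the mean ± SD of the line. With this scaling CGS has the highest mean in all 6 panels and SAT the lowest, whereas in CPM without TMM factors SSA has the highest mean for 4 of the 6 genes.

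Levels are given as CPM after TMM scaling, which takes it that most genes do not differ between libraries, and a level is compared only between lines, not between genes. With this scaling CGS had the highest mean and SAT the lowest mean for each of the 6 genes. In plain CPM, taken without TMM factors, SAT was again lowest for all 6, but CGS was highest for only 2, RBCS Os12g0292400 and PsbO, and SSA was highest for the other 4. The lines accounted for 60.4% (CAB1R) to 82.5% (RBCS Os12g0292400) of the variance of log2(CPM + 1) between the 22 libraries. The median over the 15892 genes of at least 5 CPM was 45.6%, and the upper quartile was 60.3%, so all 6 genes lay above that quartile.

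Among the genes of the Rubisco small subunit, RBCS Os12g0292400 was the one for which CGS stood apart with TMM scaling. Its level was 111, 150, 128 and 124 CPM in CGS × SSA and 107, 114 and 117 CPM in SAT × SSA. It was 163, 181, 165, 183 and 168 CPM in CGS, 122, 120 and 149 CPM in SSA, 114, 103 and 101 CPM in SAT and 103, 131, 104 and 114 CPM in Taipei. With this scaling the lowest CGS library lay above every library of the other 5 lines. In plain CPM it did not, as CGS × SSA spanned 119 to 161 CPM, CGS 155 to 171 CPM and SSA 132 to 172 CPM. The share of all genes with CGS above all other lines is not given here. In the order of line means with TMM, CGS (172 CPM) and the next line SSA (130 CPM) did not overlap, whereas each later neighbour, CGS × SSA, Taipei, SAT × SSA and SAT, overlapped the one before it.

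RBCS Os12g0291100 had 387, 437, 374 and 386 CPM in CGS × SSA and 329, 384 and 348 CPM in SAT × SSA. It had 449, 416, 385, 430 and 413 CPM in CGS, 377, 389 and 426 CPM in SSA, 336, 301 and 281 CPM in SAT and 323, 346, 321 and 321 CPM in Taipei. The libraries of CGS, SSA and CGS × SSA all lay above those of Taipei (6.07%, 11.1% and 3.51% of all genes tested did so), but no neighbours in the order of the means were separate.

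RBCS Os12g0274700 was the gene with the widest range, 2.41-fold between its lowest and highest library. Its level was 54.6, 77.1, 59.3 and 48.0 CPM in CGS × SSA and 42.2, 48.7 and 49.8 CPM in SAT × SSA. It was 77.1, 57.2, 59.4, 57.7 and 73.5 CPM in CGS, 54.3, 65.8 and 68.5 CPM in SSA, 34.1, 40.1 and 32.0 CPM in SAT and 44.4, 56.7, 50.3 and 59.6 CPM in Taipei. All 3 SAT libraries lay below all 19 others, and the share of all genes that did so is not given here. The only neighbours in the order of the means whose libraries did not overlap were SAT × SSA and SAT, the 2 lowest. Of all genes tested, 14.4% lay higher in SAT × SSA than in SAT in this way.

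CAB1R varied least among the 6 genes, with a 1.45-fold range. CGS × SSA ranged from 1591 to 2026 CPM, SAT × SSA from 1487 to 1819 CPM, SSA from 1650 to 1752 CPM and SAT from 1500 to 1601 CPM. The CGS libraries had 1863, 2038, 2113, 1800 and 2156 CPM, and the Taipei libraries 1723, 1702, 1537 and 1774 CPM. Every pair of neighbours in the order of its line means overlapped.

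CAB2R, a second gene of the same antenna family, had 1173, 1253, 1279, 1135 and 1396 CPM in CGS and 822, 1031, 885 and 1008 CPM in Taipei. Its SAT × SSA libraries were far apart at 680, 1167 and 952 CPM, and those of SAT lay close together at 840, 854 and 854 CPM. CGS × SSA ranged from 957 to 1079 CPM and SSA from 994 to 1189 CPM. No neighbours in the order of its means were separate. The lowest value of all 22 libraries was that of SAT × SSA replicate 1, the library with many reads outside genes, which was also the lowest for CAB1R and PsbO.

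PsbO had the most neighbours in the order of the means with no overlap. Its level was 532, 555, 527 and 551 CPM in CGS × SSA and 389, 557 and 485 CPM in SAT × SSA. It was 626, 702, 656, 670 and 768 CPM in CGS, 560, 559 and 582 CPM in SSA, 482, 428 and 446 CPM in SAT and 472, 504, 479 and 499 CPM in Taipei. CGS, SSA, CGS × SSA and Taipei followed each other in this order with no overlap between neighbours, while SAT × SSA, with 389 to 557 CPM, overlapped CGS × SSA, Taipei and SAT. Of all genes tested, 5.52% lay lower in CGS × SSA than in SSA in this way, and 3.51% higher in CGS × SSA than in Taipei. The share for CGS and SSA is not given here. In plain CPM, CGS (602 to 782 CPM) and SSA (605 to 671 CPM) overlapped.

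**Figure D2:**
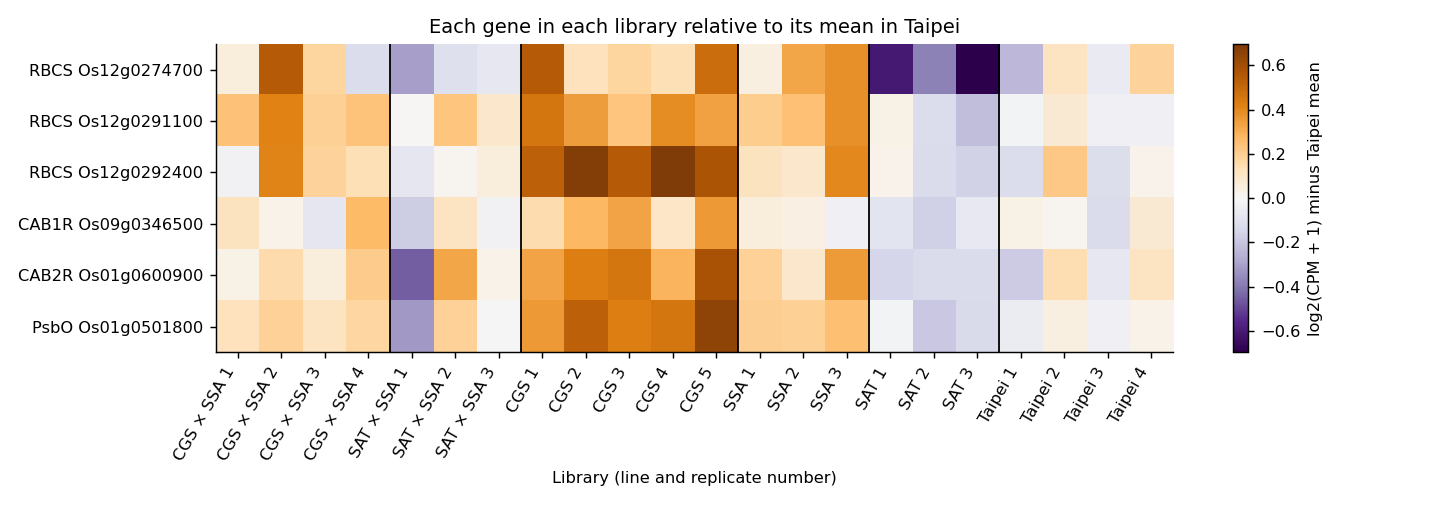
Level of each gene (rows) in each library (columns, grouped by line) as log2(CPM + 1) minus the gene's mean in Taipei; brown is above and purple below the Taipei mean. All 6 genes are above it in each of the 5 CGS libraries, and all 6 are below it in SAT replicates 2 and 3. All 6 are also above it in SSA replicates 1 and 2, CGS × SSA replicate 2 and Taipei replicate 2. In Taipei replicate 3 all 6 are below it.

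The map of single libraries shows how evenly the genes moved within a line. All 5 CGS libraries had all 6 genes above their Taipei mean. So did SSA replicates 1 and 2, CGS × SSA replicate 2 and 1 library of the parent, Taipei replicate 2. All 6 were below it in SAT replicates 2 and 3 and in Taipei replicate 3. The mean distance of the 6 genes from their Taipei mean was 0.34 to 0.50 on the log2 scale in CGS. The corresponding mean distance was 0.09 to 0.29 in CGS × SSA, -0.22 to 0.13 in SAT × SSA, 0.13 to 0.29 in SSA and -0.23 to -0.13 in SAT. Single Taipei libraries lay between -0.10 and 0.10. In plain CPM this distance was 0.23 to 0.48 in CGS × SSA, 0.00 to 0.41 in SAT × SSA, 0.28 to 0.61 in CGS (mean 0.40), 0.33 to 0.58 in SSA (mean 0.45) and -0.39 to -0.16 in SAT, so CGS and SSA overlapped.

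Each line was then compared with Taipei in a fit of all 22 libraries, with edgeR's quasi-likelihood test and Benjamini-Hochberg adjustment over all 26821 genes, and a gene was called at an adjusted p under 0.01. The 5 comparisons with Taipei share the same 4 Taipei libraries.

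In CGS seeds, 3 of the 6 genes were higher than in Taipei and none was lower, where 2.34% of all genes tested were called higher and 1.36% lower. All 6 had a higher estimate with an unadjusted p under 0.05, where 13.3% of all genes tested did. RBCS Os12g0292400 averaged 172 ± 9.48 CPM in CGS (SD, n = 5) and 113 ± 13.0 CPM in Taipei (n = 4), a 1.52-fold difference. Its log2 fold change was 0.60 ± 0.09 (SE, adjusted p = 0.000177, edgeR). PsbO averaged 684 ± 54.0 CPM in CGS and 488 ± 15.5 CPM in Taipei, a log2 fold change of 0.49 ± 0.08 (adjusted p = 0.000754). RBCS Os12g0291100 averaged 418 ± 23.7 CPM in CGS and 328 ± 11.9 CPM in Taipei, a log2 fold change of 0.35 ± 0.07 (adjusted p = 0.00334). The calls of RBCS Os12g0292400 and PsbO held in all 18 other settings tried, each library of the 2 lines left out in turn included. That of RBCS Os12g0291100 held in 12 of the 18, and its adjusted p was 0.0117, 0.0137 and 0.0155 without Taipei replicate 1, 3 or 4, 0.0188 in plain CPM, 0.0145 with only the 2 lines in the fit and 0.0124 with the replicate block.

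The antenna genes and the third RBCS gene did not pass the threshold. CAB2R had a log2 fold change of 0.41 (95% confidence interval 0.18 to 0.65, adjusted p = 0.0257) and passed with DESeq2 (adjusted p = 0.0068, between 0.0068 and 0.0844 over all alternatives), which called 3.63% of its genes higher. CAB1R had 0.24 (0.07 to 0.42, adjusted p = 0.0779), and RBCS Os12g0274700 had 0.30 (0.03 to 0.57, adjusted p = 0.151). For 5 of the 6 genes, RBCS Os12g0274700 being the exception, every CGS library lay above every Taipei library, where 6.07% of all genes tested did so. In plain CPM this held for 4 of the 6, as CAB1R overlapped too. Hull and floral organ genes, a list of 4, summed to 359 to 489 CPM in CGS and 324 to 358 CPM in Taipei, with no overlap and 0 of the 4 called with edgeR (2 at an unadjusted p under 0.05). With DESeq2 1 of the 4 was called higher, as was 1 with edgeR without CGS replicate 1, and their part in the result was not tested.

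In SSA seeds, 0 of the 6 genes were called with edgeR, where 2.46% of all genes tested were, and 0 with DESeq2. At an unadjusted p under 0.05, 2 of the 6 genes had a higher estimate, where 10.4% of all genes tested did. RBCS Os12g0291100 came closest, with 397 ± 25.6 CPM in SSA (n = 3) and 328 ± 11.9 CPM in Taipei, a log2 fold change of 0.28 ± 0.08 (adjusted p = 0.0445, edgeR). PsbO had 0.21 (95% confidence interval 0.02 to 0.41, adjusted p = 0.200). For both genes all SSA libraries lay above all Taipei libraries (11.1% of all genes tested). CAB1R had an estimate of 0.02 with an interval of -0.18 to 0.23.

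The SSA comparison depended on the scaling. The 8 endosperm genes summed to 36453 ± 9271 CPM in SSA and 107126 ± 14772 CPM in Taipei. Of the 8, 3 were called lower (Os01g0762500, Os10g0400200 and Os05g0499100), and the estimates of the 8 reached from -2.01 to -0.13. Without TMM the median of all genes was 0.25 higher on the log2 scale in SSA, and 2933 of the 2999 genes called were higher, against 490 of 659 with TMM. In plain CPM, 3 of the 6 genes were then called higher in SSA, namely RBCS Os12g0291100 (0.53), PsbO (0.47) and RBCS Os12g0292400 (0.46), where 10.9% of all genes tested were. Relative to that median, these 3 values came to 0.28, 0.21 and 0.21.

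SAT seeds had lower estimates than Taipei for all 6 genes, and 0 of them were called with edgeR, where 0.69% of all genes tested were, and 0 with DESeq2. Only RBCS Os12g0274700 had an unadjusted p under 0.05, where 8.17% of all genes tested had a lower estimate with such a p. It averaged 35.4 ± 4.19 CPM in SAT (n = 3) and 52.7 ± 6.79 CPM in Taipei (n = 4), a log2 fold change of -0.57 ± 0.15 (adjusted p = 0.0424, edgeR), and all SAT libraries lay below all Taipei libraries (8.57% of all genes tested). The other 5 estimates lay between -0.14 and -0.09, with 95% confidence intervals that reached from -0.41 to 0.13.

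In CGS × SSA seeds, 0 of the 6 genes were called against Taipei with edgeR (1.08% of all genes tested) and 0 with DESeq2, while 1 had a higher estimate at an unadjusted p under 0.05 (5.36% of all genes tested). This gene was RBCS Os12g0291100, with 396 ± 28.0 CPM in CGS × SSA (n = 4) and 328 ± 11.9 CPM in Taipei, a log2 fold change of 0.27 ± 0.08 (adjusted p = 0.0726, edgeR). PsbO averaged 541 ± 13.7 CPM in CGS × SSA and 488 ± 15.5 CPM in Taipei, a log2 fold change of 0.15 (95% confidence interval -0.03 to 0.33, adjusted p = 0.621). For these 2 genes, all CGS × SSA libraries lay above all Taipei libraries (3.51% of all genes tested). In plain CPM 342 of the 377 genes called were higher in CGS × SSA, against 214 of 291 with TMM, and 0 of the 6 genes were called.

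In SAT × SSA seeds, 0 of the 6 genes were called against Taipei with edgeR (1.22% of all genes tested), 0 with DESeq2 and 0 at an unadjusted p under 0.05 (10.1% of all genes tested had such a p with a higher and 10.6% with a lower estimate). The estimates lay between -0.17 and 0.11, with 95% confidence intervals that reached from -0.47 to 0.28. Without replicate 1 of SAT × SSA, which stood apart, PsbO had an estimate of 0.09 in place of -0.03 and CAB2R one of 0.18 in place of -0.01, and neither was called. In plain CPM 1470 of the 1544 genes called were higher in SAT × SSA, against 209 of 326 with TMM, and 0 of the 6 genes were called.

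**Figure D3:**
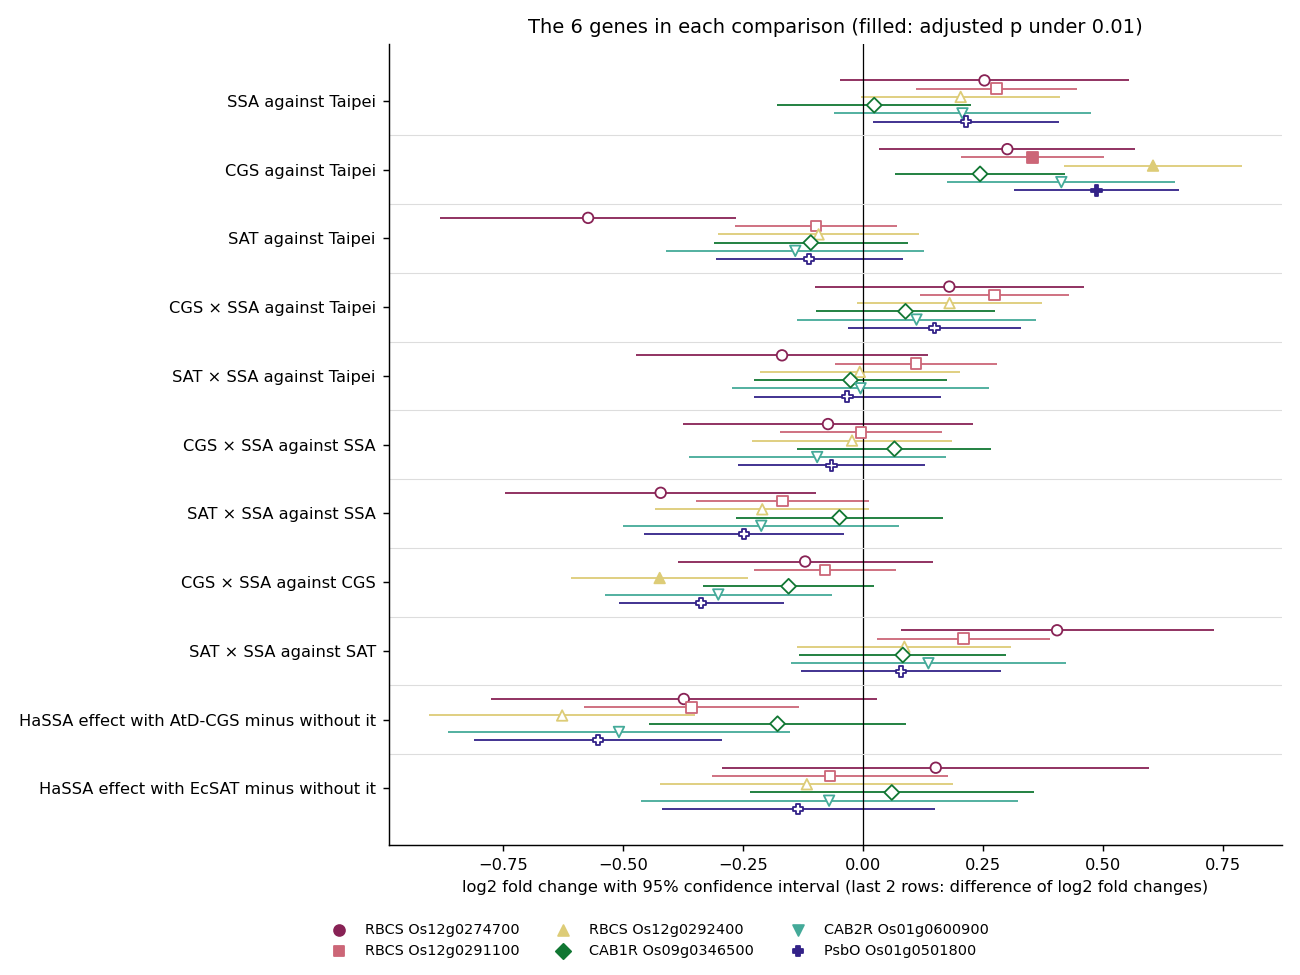
Log2 fold change of each gene in each comparison (x axis) with its 95% confidence interval; the first-named line is over the second, and the last 2 rows are differences of 2 log2 fold changes. Filled symbols mark an adjusted p under 0.01, which 3 genes reach in CGS against Taipei and 1 gene reaches in CGS × SSA against CGS.

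Each double line was next compared with its enzyme parent, which asks how the genes differ after HaSSA was brought in by the cross with SSA. HaSSA, its insertion event and other differences from the cross cannot be told apart here. In CGS × SSA, 1 of the 6 genes was lower than in CGS, where 2.05% of all genes tested were lower and 1.82% higher. RBCS Os12g0292400 averaged 128 ± 16.2 CPM in CGS × SSA (n = 4) and 172 ± 9.48 CPM in CGS (n = 5), a log2 fold change of -0.42 ± 0.09 (adjusted p = 0.00386, edgeR). PsbO averaged 541 ± 13.7 CPM in CGS × SSA and 684 ± 54.0 CPM in CGS, a log2 fold change of -0.34 ± 0.08 that stayed above the threshold with edgeR (adjusted p = 0.0122) and passed it with DESeq2 (adjusted p = 0.00137, between 0.00137 and 0.188 over all alternatives), which called 3.35% of its genes lower. CAB2R had -0.30 (95% confidence interval -0.54 to -0.07, adjusted p = 0.103). For RBCS Os12g0292400, PsbO and CAB2R, all CGS × SSA libraries lay below all CGS libraries with TMM (5.83% of all genes tested). In plain CPM this held only for PsbO.

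The call of RBCS Os12g0292400 in CGS × SSA was not stable. It was lost without CGS × SSA replicate 1, 3 or 4 and without CGS replicate 2 or 4, with adjusted p-values of 0.0218, 0.013, 0.0189, 0.0115 and 0.012. It was also lost in plain CPM (log2 fold change -0.28, adjusted p = 0.0614), where the median of all genes was 0.15 higher in CGS × SSA than in CGS. In plain CPM 1021 of the 1171 genes called were higher, against 488 of 1038 with TMM. Endosperm genes summed to 52247 ± 5424 CPM in CGS × SSA and 96533 ± 11506 CPM in CGS.

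In SAT × SSA, 0 of the 6 genes were called against SAT with edgeR (4.25% of all genes tested) and 0 with DESeq2, and 2 had a higher estimate at an unadjusted p under 0.05 (13.9% of all genes tested). RBCS Os12g0274700 averaged 46.9 ± 4.07 CPM in SAT × SSA and 35.4 ± 4.19 CPM in SAT (n = 3 each), a log2 fold change of 0.40 ± 0.16 (adjusted p = 0.091, edgeR), with no overlap between the libraries (14.4% of all genes tested). RBCS Os12g0291100 had 0.21 (95% confidence interval 0.03 to 0.39, adjusted p = 0.113). Without SAT × SSA replicate 1 the values of these 2 genes were 0.47 and 0.26, and neither was called. In plain CPM, RBCS Os12g0291100 was called (0.49, adjusted p = 0.00272, where 15.8% of all genes tested were called higher), with the median of all genes 0.30 higher in SAT × SSA and 4235 of 4619 calls higher, against 427 of 1140 with TMM.

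Against SSA, the other parent, neither double line had a called gene. In CGS × SSA, 0 of 6 genes were called with edgeR (0.112% of all genes tested), 0 with DESeq2 and 0 at an unadjusted p under 0.05 (4.99% of all genes tested had such a p with a higher and 5.59% with a lower estimate), with estimates between -0.10 and 0.07 and 95% confidence intervals that reached from -0.38 to 0.27. PsbO, at 541 ± 13.7 CPM in CGS × SSA and 567 ± 12.8 CPM in SSA, was the only one of the 6 whose libraries did not overlap (5.52% of all genes tested lay lower in this way). In plain CPM 10 of the 33 genes called were higher in CGS × SSA, against 13 of 30 with TMM.

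In SAT × SSA, 0 of 6 genes were called against SSA with edgeR (0.619% of all genes tested) and 0 with DESeq2, and all 6 estimates were below 0. With an unadjusted p under 0.05, which 6.02% of all genes tested had with a lower estimate, there were RBCS Os12g0274700 (log2 fold change -0.42, adjusted p = 0.288) and PsbO (-0.25, adjusted p = 0.339). For these 2 and RBCS Os12g0292400, all SAT × SSA libraries lay below all SSA libraries (8.81% of all genes tested). In plain CPM the libraries of PsbO overlapped. Without SAT × SSA replicate 1, the values of RBCS Os12g0274700 and PsbO were -0.35 and -0.12.

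Whether adding HaSSA had a different effect beside AtD-CGS than alone was tested as the difference of 2 log2 fold changes. It was that between CGS × SSA and CGS minus that between SSA and Taipei. Here too, HaSSA cannot be told apart from its insertion event and the cross. All 6 estimates were below 0, and 0 genes were called with edgeR, where 0.38% of all genes tested were. The unadjusted p was under 0.05 for 4 of the 6 genes, and 8.21% of all genes tested had such a p with a difference below 0. RBCS Os12g0292400 had a difference of -0.63 ± 0.13 (adjusted p = 0.0191, edgeR) and PsbO one of -0.55 ± 0.12 (adjusted p = 0.0282), and both passed with DESeq2 (adjusted p = 0.00227 and 0.0017), which called 0.679% of its genes lower. Over all alternatives the adjusted p reached from 0.00227 to 0.101 for RBCS Os12g0292400 and from 0.0017 to 0.1001 for PsbO. The matching difference beside EcSAT lay between -0.14 and 0.15 for the 6 genes, with 95% confidence intervals that reached from -0.46 to 0.60. It was called for 0 genes with edgeR (0.25% of all genes tested), for 0 with DESeq2 and for 0 at an unadjusted p under 0.05 (6.26% of all genes tested had such a p with an estimate above 0 and 6.96% with one below 0).

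**Figure D4:**
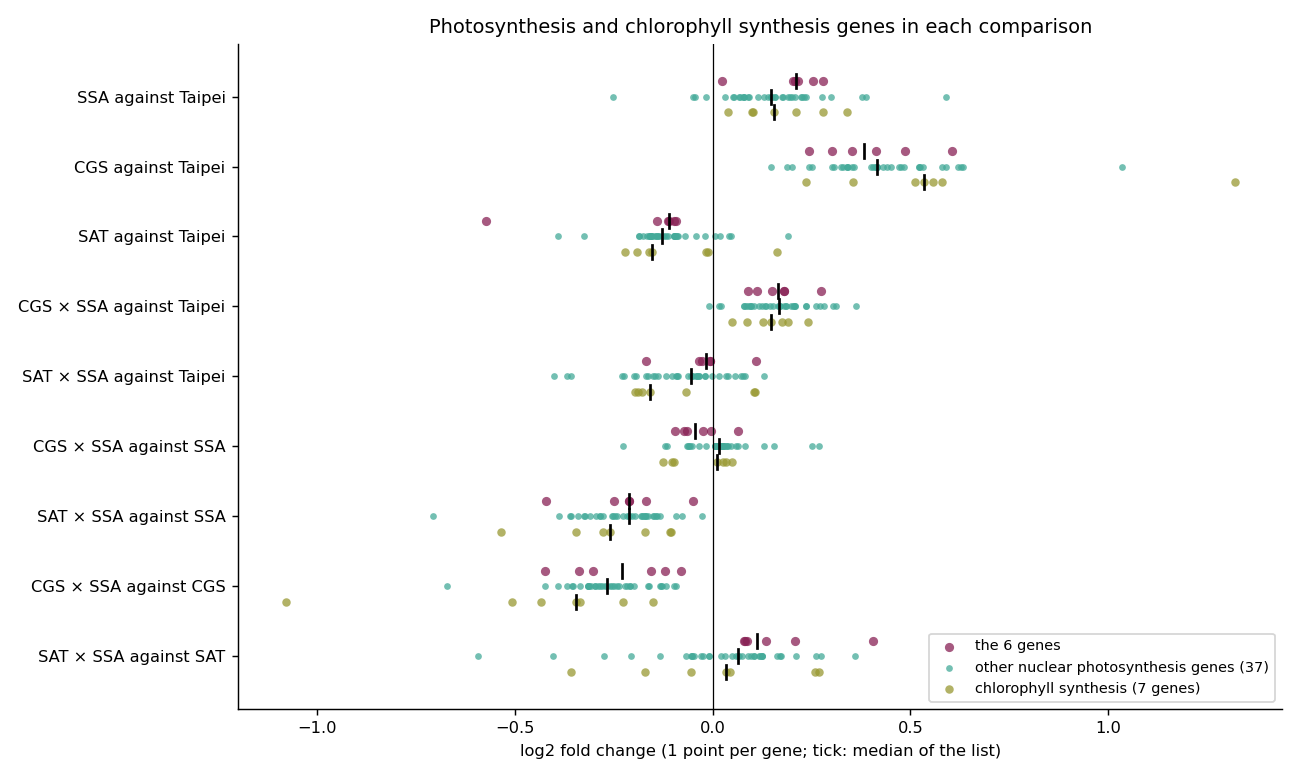
Log2 fold change (x axis) of the 6 genes, of 37 other nuclear photosynthesis genes and of 7 chlorophyll synthesis genes in each comparison between 2 lines; each point is a gene and each tick the median of a list. With TMM scaling, all points of CGS against Taipei lie above 0, and all points of CGS × SSA against CGS lie below 0. In plain CPM, RBCS Os12g0274700 (0.02) and RBCS Os12g0291100 (0.07) were above 0 in CGS × SSA against CGS.

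Other genes of photosynthesis were read as whole lists, written from general knowledge of rice identifiers and not checked against an annotation, as the files do not pair identifiers with names. All 37 other nuclear photosynthesis genes passed the filter on low counts. In CGS, 24 of the 37 were higher than in Taipei and 0 were lower, with a median log2 fold change of 0.42 beside 0.01 over all genes tested. One of these 24, Os07g0148900, rose by 0.63 ± 0.09 (adjusted p = 0.000117, edgeR). The count was 30 with DESeq2, 16 in plain CPM, 12 with the replicate block and 13 to 23 with 1 library left out. It moved by over 1.5 times without Taipei replicate 2 (15), 3 (13) or 4 (14) and CGS replicate 2 (15) or 5 (15), while the median stayed between 0.39 and 0.43.

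In CGS × SSA, 5 of the 37 were lower than in CGS and 0 were higher, with a median of -0.27 beside 0.00 over all genes. This count was 8 with DESeq2, 0 in plain CPM (median -0.12), 0 with the replicate block and 0 to 5 with 1 library left out. It was 1 without CGS × SSA replicate 1, 1 without replicate 3 and 0 without replicate 4 of that line, and 2, 3 and 2 without CGS replicate 2, 4 and 5. In the other 7 comparisons between 2 lines, 0 of the 37 were called with edgeR, and with DESeq2 1 was lower in SAT × SSA than in SAT and 0 were called in the other 6. In plain CPM 13 were called higher in SSA than in Taipei, where 10.9% of all genes tested were. Likewise, 6 were called higher in SAT × SSA than in SAT, where 15.8% of all genes tested were. The shifts of the median of all genes in plain CPM are given above. Higher estimates with an unadjusted p under 0.05 were found for 11 in CGS × SSA (5.36% of all genes tested) and 8 in SSA (10.4%) against Taipei, and lower ones for 18 in SAT × SSA against SSA (6.02%). The medians were 0.17 in CGS × SSA, -0.05 in SAT × SSA, 0.15 in SSA and -0.13 in SAT, each against Taipei. Without SAT × SSA replicate 1, the median was 0.03 in SAT × SSA against Taipei and -0.11, in place of -0.21, against SSA. In the effect of HaSSA with AtD-CGS minus that without it, 0 of the 37 were called with edgeR and 4, all lower, with DESeq2, and 30 had a difference below 0 with an unadjusted p under 0.05 (median -0.40).

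The 7 genes of chlorophyll synthesis, the pathway that makes the pigment of the antenna proteins, were read in the same way. In CGS, 5 of the 7 were higher than in Taipei, with a median of 0.53, and the 2 that were not called had p-values under 0.05 before adjustment. The count was 6 with DESeq2, 4 in plain CPM and 2 with the replicate block, and it fell to 3 or 2 without Taipei replicate 2 (2), 3 (3) or 4 (2) and CGS replicate 2 (2), 4 (2) or 5 (3). Compared with CGS, 2 of the 7 were lower in CGS × SSA (median -0.34). This count was 3 with DESeq2, 0 in plain CPM and with the replicate block, and 0 without CGS × SSA replicate 1, 3 or 4 or CGS replicate 4. It was 1 without CGS × SSA replicate 2 or CGS replicate 2 or 5, and 3 without CGS replicate 1 or 3. One of the 7, Os03g0563300, was higher in CGS than in Taipei (0.51, adjusted p = 7.7e-05), lower in CGS × SSA than in CGS (-0.34, adjusted p = 0.00341), and differed in the effect of HaSSA with and without AtD-CGS (-0.61 ± 0.10, adjusted p = 0.00348, edgeR). It was the only gene called in this difference among the 6 genes, the 37 and the 7 with edgeR, and with 1 library left out 0 to 1 of the 7 was called.

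Of 3 regulators of chloroplast genes, 0 were called in any comparison with edgeR or DESeq2, and 1 was called higher in CGS than in Taipei without CGS replicate 3 and 1 in SAT × SSA than in SAT in plain CPM. Of 3 genes of chlorophyll breakdown, 0 were called against Taipei in any line with edgeR, while 2 were lower in SAT × SSA than in SAT (-0.77 and -0.92), where 2.66% of all genes tested were, and 0 to 2 were with 1 library left out (0 without SAT × SSA replicate 1). With DESeq2 1 was lower in SAT × SSA and 1 in SSA than in Taipei. All 3 had lower estimates with an unadjusted p under 0.05 in SAT × SSA (median -0.50, 10.6% of all genes tested) and in SSA (median -0.41, 9.02%), each against Taipei.

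**Figure D5:**
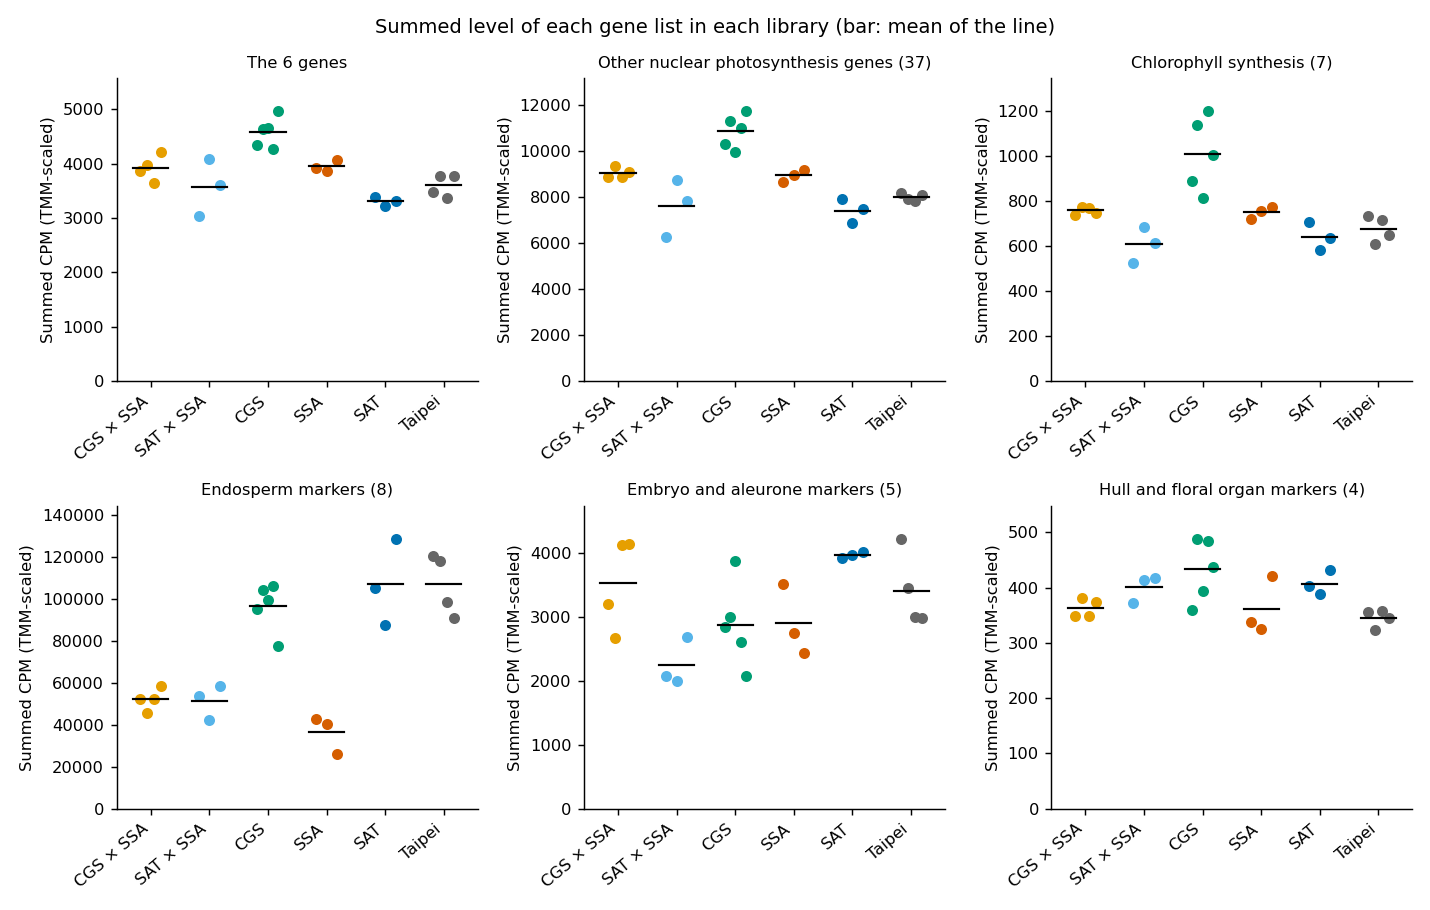
Summed level of 6 gene lists in each library, in CPM scaled with TMM factors (y axis, from 0), by line (x axis); points are libraries and bars are the means of the lines. With this scaling the means of the photosynthesis and chlorophyll synthesis lists are highest in CGS. The endosperm sum is lowest in the 3 lines with HaSSA, where 2 or 3 of its 8 genes were called lower than in Taipei.

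Markers of other tissues, from lists that were likewise not checked against an annotation, moved with some of these lines. Their part in the results was not tested. The sum of the 4 hull and floral organ genes lay between 349 and 381 CPM in CGS × SSA and between 372 and 418 CPM in SAT × SSA. It lay between 326 and 421 CPM in SSA and between 388 and 431 CPM in SAT. The SAT × SSA, CGS and SAT libraries all lay above those of Taipei, which reached 358 CPM. Embryo and aleurone genes, a list of 5, summed to 2070 to 3862 CPM in CGS, 3920 to 4006 CPM in SAT and 2976 to 4221 CPM in Taipei. With edgeR 0 of the 5 were called against Taipei in any line. In SAT × SSA (1998 to 2680 CPM summed) 1 was lower than in SAT, where 2.66% of all genes tested were. The 8 endosperm genes summed to 77403 to 106120 CPM in CGS and 90751 to 120814 CPM in Taipei, with 0 of the 8 called. In CGS × SSA and in SAT × SSA, 2 of the 8 each were called lower than in Taipei. Of all genes tested, 1.08% and 1.22% were called there in either direction. Compared with CGS and SAT, 3 and 2 of the 8 were called lower, where 2.05% and 2.66% of all genes tested were. The 2 called against Taipei were Os01g0762500 and Os10g0400200, listed as the glutelin genes GluA1 and GluA2. The 8 did not move alike. Estimates against Taipei reached from -1.27 to 0.14 in CGS × SSA, with 3 of 8 higher. In SAT × SSA they reached from -1.27 to 0.74, with 1 of 8 higher. No gene of the 3 marker lists was at 0 in any library.

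Within a library, ratios of counts do not depend on the scaling. PsbO counts per 100 CAB1R and CAB2R counts were 19.4 ± 1.26 in CGS × SSA and 18.4 ± 0.388 in SAT × SSA (mean ± SD). They were 21.1 ± 1.28 in CGS, 20.3 ± 0.346 in SSA, 18.7 ± 0.998 in SAT and 18.7 ± 0.781 in Taipei. RBCS Os12g0292400 counts per 100 counts of RBCS Os12g0291100 were 41.2 ± 3.00 in CGS, against line means of 31.9 to 34.7 elsewhere, and the CGS libraries (36.2 to 43.6) overlapped only Taipei, which reached 38.0. The 3 RBCS genes together came to 20.4 ± 2.31 counts per 100 CAB counts in CGS and 18.9 ± 0.87 in Taipei, and these overlapped.

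The 6 genes varied together across the libraries. Over all 15 pairs and 22 libraries, Pearson's r of log2(CPM + 1) ranged from 0.49 (RBCS Os12g0274700 and CAB1R) to 0.93 (CAB2R and PsbO), and Spearman's rho from 0.47 to 0.93. By permutation test with 100000 resamples and adjustment over the 15 pairs, the p-values of r lay between 2.1e-05 and 0.0208, and those of rho between 3e-05 and 0.0282. Without the 2 libraries farthest from the median of the first gene, r was 0.42 to 0.90. Libraries of 1 line are not independent of each other in this measure, so r was also taken on deviations from the line means, where it ranged from -0.16 to 0.87. By the same permutation test, 4 of the 15 pairs had an adjusted p under 0.01 on deviations, against 14 of 15 before, and without the 2 farthest libraries r was -0.07 to 0.64. Deviations sum to 0 within each line, so the 22 values are not independent and the p-values on deviations may be too small. The antenna and PsbO genes had r of 0.61 to 0.87 among themselves (adjusted permutation p = 0.0003 to 0.00877) and the 3 RBCS genes 0.43 to 0.64 (adjusted permutation p = 0.00877 to 0.0928), whereas CAB1R had -0.16, -0.03 and -0.09 with the RBCS genes.

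The genes whose pattern was most like the mean pattern of the 6 were looked up among 15886 other genes with a mean of at least 5 CPM. Of the 10 most alike, with r of 0.93 to 0.96 over 22 libraries, 7 were on the list of 37 other photosynthesis genes. The first of them were Os06g0320500, Os07g0141400 and Os03g0343900, the last of which is on none of the lists. On deviations from the line means, 7 of the 10 most alike were again on the list, with r of 0.78 to 0.85. The median r of the 37 genes with the pattern was 0.87, beside 0.02 over all genes compared. It was -0.07 for the 8 endosperm genes, -0.29 for the 5 embryo and aleurone genes and 0.11 for the 3 hull and floral organ genes that had at least 5 CPM. On deviations from the line means these medians were 0.65 for the 37 genes, -0.40 for the endosperm genes, -0.34 for the embryo and aleurone genes and 0.27 for the hull and floral organ genes. These values share libraries and depth with the genes they were set against and are a description.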

How the data were processed

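RNA of milkripe seeds was depleted of rRNA by the authors and sequenced as strand-specific single-end reads. The deposited counts, made by the authors with STAR 2.7.1a on IRGSP-1.0, are whole uniquely mapped reads per gene, not normalized, once without strand and once for each strand. The anti-strand counts of all 22 libraries, the column the study used, were analysed here. Reads outside genes, unmapped or mapped to several places stayed out of library sizes.

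CPM were scaled with TMM. The 26821 genes kept by filterByExpr were tested with edgeR 4.0.16 (R 4.3.3), in a single quasi-likelihood model (robust setting) that held every library and had line as its factor. Tests are two-sided, with 11 comparisons and Benjamini-Hochberg adjustment over all genes. The test was also run on simulated counts for SSA against Taipei. These held no shift like that of the endosperm genes, so nothing is concluded from them here. The SE of a log2 fold change was its size divided by √F. Alternatives were unstranded counts, plain library sizes in place of TMM, RLE factors, DESeq2 1.42.0, no filter or a minimum mean of 100 normalized counts, a threshold of 0.05, a replicate block, only the groups compared, and each library left out in turn. For the other gene lists, those reported were chosen after seeing the data. A permutation test was used for correlations.

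The 6 genes and the lists were chosen with earlier results of these data known. All 6 are named, as are the genes most like their mean pattern (Pearson's r, at least 5 CPM). Of the other lists, the further genes named were chosen after their values were seen. Promoter motifs were not analysed here.

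Same-numbered libraries were checked for shared deviations from the line means. Only for SAT × SSA against SSA were all 3 correlations over 0.1 (0.10, 0.11 and 0.17), with no shared origin in the labels, and with the replicate block 0 of the 6 genes were called there too.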

Additional observations from a re-analysis of the deposited data

Results flagged for a closer look

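RBCS Os12g0291100 in Taipei replicate 2, at 345.5 CPM, lay far from the other Taipei libraries, which were within 321 to 323 CPM. The gap was 0.918 of the range of the line, above the limit of 0.829 for 4 samples. It was 1 of 18 groups of 4 or 5 libraries looked at, and chance alone flags about 5% of such groups. Without this library the log2 fold change of the gene in CGS was 0.38 (adjusted p = 0.00589, edgeR) in place of 0.35.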

How the results depend on the processing

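Of 1164 log2 fold changes of single genes under an alternative, 1132 kept their side of the threshold, 19 passed it newly and 13 no longer passed it, and no called value changed its sign. Of 194 counts of genes called, 174 stayed within 1.5 times the first value. In SSA against Taipei, where 0 genes were called, 1 was at a threshold of 0.05 and 3 in plain CPM (10.9% of all genes tested were called higher there). In SAT against Taipei 1 was called at 0.05, and in SAT × SSA against SAT 1 in plain CPM (15.8% of all genes tested were called higher there), in place of 0. In CGS × SSA against CGS, in place of 1, there were 2 at 0.05 and with DESeq2 (which called 3.35% of its genes lower), and 0 in plain CPM and with only the groups compared. For the effect of HaSSA with AtD-CGS minus that without it, in place of 0, there were 2 at 0.05 and with DESeq2 (which called 0.679% of its genes lower). There was 1 with unstranded counts and with only the groups compared. Plain CPM moved the median of all genes, as given above. The cause was not tested in the other cases. The share of all genes called is not given here for the 0.05 threshold, unstranded counts, the groups compared alone or libraries left out. Those counts show only how the calls depend on the setting. Leaving out 1 library gave 2 to 3 genes in CGS against Taipei, 0 to 2 in CGS × SSA against CGS, 0 to 1 in the difference with AtD-CGS (1 without CGS × SSA replicate 2 or Taipei replicate 2), and 0 in the other 8 comparisons. With CGS replicate 1 left out, 2 genes were called in CGS × SSA against CGS.

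With the replicate number as a block, 2 genes were called in CGS against Taipei in place of 3, as RBCS Os12g0291100 had an adjusted p of 0.0124, and 1 in CGS × SSA against CGS, and it changed no other call of the 6 genes. Over 30 same-numbered pairs the correlations of deviations ranged from -0.23 to 0.31, with 6 over 0.1. The highest was that of replicate 2 of SAT and Taipei. The labels give same-numbered libraries only a number in common, and a shared origin of single pairs was not tested. On deviations from the line means, the correlation of CAB1R with RBCS Os12g0291100 was -0.028 and that with RBCS Os12g0292400 -0.091, against 0.59 and 0.66 over all libraries. Mean levels moved by more than 1 SD in 19 of 36 cases in plain CPM and in 34 of 36 with unstranded counts. With 3 to 5 libraries a line, differences of the size of the intervals given cannot be told from 0, and counts of single RBCS genes depend on how shared and overlapping reads are assigned.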
